A study of Homo sapiens with 58 samples.

Results

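The genes described here carry the symbols of the proteasome family, PSMA to PSMG. They were taken from the combined table of HuR crosslinking peaks as all peaks whose gene name starts with 1 of these 7 stems, after repeated lines were dropped and names of processed pseudogenes and antisense RNAs were left out. This gave 1006 of 387214 peaks, in 44 of 13836 named genes. Another 32 peaks in 4 family names were left out by the rule. Of the 44 names, 41 are proteasome subunits, regulators or assembly chaperones. The other 3 share only the stem: PSMC3IP, which acts in meiotic recombination, and the divergent transcripts PSMD7-DT and PSMD14-DT hold 8 peaks together.

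The proteasome degrades proteins that carry ubiquitin. Its barrel-shaped 20S core is built of an outer alpha ring (PSMA) and an inner, proteolytic beta ring (PSMB), and the 19S cap that feeds it holds a ring of ATPases (PSMC) and non-ATPase subunits (PSMD). Activators (PSME), an inhibitor (PSMF1) and assembly chaperones (PSMG) bind the core. HuR, encoded by ELAVL1, is an RNA-binding protein that prefers U-rich and AU-rich stretches in introns and 3'UTRs, shuttles between nucleus and cytoplasm, and joins stress granules under arsenite, an oxidative stress that also damages proteins.

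The study sequenced RNA crosslinked to HuR (CLIP) in Huh-7.5, a human hepatocellular carcinoma line, in 58 libraries of 16 groups. For 12 libraries, wild-type cells without an APEX reaction were split into nuclear and cytoplasmic fractions, each as mock or after 45 min in 0.5 mM sodium arsenite, with 3 libraries in each of the 4 groups. The other 46 came from 3 lines that express the peroxidase APEX in the nucleus (genotype APEX-NLS), the cytoplasm (APEX-NES) or at the stress-granule protein G3BP1 (APEX-G3BP1), all labelled with biotin phenol and hydrogen peroxide; the labels do not say whether a line is a single clone. Of these, 17 input libraries had the HuR immunoprecipitation alone and 29 enriched libraries had a further streptavidin capture, again as mock or arsenite. All fraction libraries belong to a single library set, and the labels do not say that replicates came from separate cultures, so p-values measure the spread between these libraries, which may be technical. Levels are tags per 1000000 of the library total (CPM). A tag level reflects both how much of an RNA is present and how often HuR is crosslinked to it, and the amount of RNA was not measured, so the 2 cannot be told apart.

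The proteasome peaks held 25200 tags in all libraries and 17585 in the fractions, where each library gave 811 to 2480 of them. Inputs held 0 to 1235 and enriched libraries 0 to 174, so most statements rest on the fractions. Liver markers were present in the fractions (AFP 395 to 1473 CPM, ALB 64.1 to 558 CPM), whereas APOA1 and TTR had no peak. Of 7 markers of blood cells, fibroblasts and endothelium, CD3E, CD68 and COL1A1 had no peak, PTPRC had 0 to 5.46 CPM (median 2.01) and COL3A1, PECAM1 and VWF at most 1.6 CPM. Of the compartment markers, the nuclear RNA NEAT1 (413 against 125 CPM) and the snoRNA host transcripts GAS5 (494 against 46.7 CPM) and SNHG1 (480 against 40.8 CPM) had higher means in the mock nuclear fraction. ACTB (2385 against 250 CPM) and NORAD (141 against 28.1 CPM) had higher means in the cytoplasmic one. MALAT1 was near equal (2562 against 2394 CPM) and EEF2 went against its compartment, with 41.8 CPM in the nucleus and 21.3 CPM in the cytoplasm.

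One sequence could be read from the reference for a peak on which a result turns. It is the 30 bases around the crosslinking peak in the 5'UTR of PSMB4, a beta-ring subunit, at chr1:151399566-151399595 on the plus strand (GRCh38.p14, RefSeq), shown because it is the only 5'UTR among the changed regions below. The deposited table annotates this peak also as coding sequence and as a coding retained intron. Capitals mark its run of 5 T, which lies at 151399566 to 151399570.

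PSMB4: TTTTTctgctaccgtgactaagatggaagc

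The run starts 7 bases before the RefSeq gene start at 151399573. The table's 20-nt peak spans chr1:151399570-151399590; whether the table counts from 0 or 1 is not stated. TTTTT on the printed strand occurred in 34.0% of the 353 peaks of the table that lie inside a RefSeq promoter entry and in 2.53% of the 35116 promoter entries at the same 30 positions. Its reverse complement occurred in 8.50% and 1.60%. ATTTA, present in 7.65% of those peaks and 1.39% of the entries, is not among these 30 letters on either strand.

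Most proteasome peaks lay in introns. Introns held 803 of the 1006 peaks (79.8%, against 55.5% of all peaks), 3'UTRs 109 (10.8% against 9.71%), transposable elements 46, coding sequence 13, noncoding RNA 10, 5'UTRs 9 and other regions 16. Their share in noncoding RNA was 0.994%, against 11.2% for all peaks. PSMD14, PSME4 and PSMD1 held 483 peaks (48.0%), with 184, 157 and 142. The median member gene had 9 peaks and 5 genes had 1. No peak was listed for 7 of the 48 family symbols in RefSeq. These were PSMA8, PSMB6, PSMB8, PSMB9, PSMB10, PSMB11 and PSME1, so no inducible or tissue-specific beta subunit was represented. RefSeq lists pseudogenes named after 21 of the member genes, most for PSMC1 (13). How reads matching several places were counted is not stated, so exonic tags of such genes are uncertain.

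Tags were concentrated in the 19S non-ATPase genes, which took 55.4% of the members' fraction tags. Activators took 16.1%, the beta ring 15.5%, the alpha ring 6.91%, the ATPases 2.95%, the chaperones 1.60% and the inhibitor 1.37%. Summed over its peaks and averaged over the 12 fraction libraries, the highest was PSMD14, the deubiquitinase of the cap, at 267 CPM. It was followed by PSME4, the activator PA200, at 193 CPM, PSMD1, a scaffold of the cap base, at 159 CPM, and PSMD11, a lid subunit, at 134 CPM. PSMD12, another lid subunit, had 81.1 CPM, the proteolytic subunit PSMB7 60.0, PSMB2 41.9, PSMB3 30.1, PSMA1 26.0 and PSMB1 25.5. These 10 genes held 81.5% of the tags.

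A sum grows with the number of peaks, and per 20-nt peak the order was different. PSMB4 had 5.39 CPM per peak, PSMB3 5.02, PSMD11 2.92 and PSMD12 2.62, whereas PSMD14 had 1.45, PSME4 1.23, PSMD1 1.12 and PSMA1 0.650. Within the roles the summed level ran from 26.0 (PSMA1) to 2.92 CPM (PSMA7) in the alpha ring, from 60.0 (PSMB7) to 16.2 CPM (PSMB4) in the beta ring and from 13.9 (PSMC6) to 0.272 CPM (PSMC3) in the ATPases. It ran from 267 (PSMD14) to 0.341 CPM (PSMD6) in the non-ATPase subunits, from 193 (PSME4) to 0.264 CPM (PSME2) in the activators and from 8.81 (PSMG2) to 1.65 CPM (PSMG1) in the chaperones. The inhibitor PSMF1 had 16.8 CPM.

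The members' tags shifted between 3'UTR and intron with the fraction, and arsenite narrowed the gap. In mock cells 3'UTR peaks took 43.5% ± 5.02 (SD, n = 3) of the members' tags in the cytoplasm and 9.38% ± 1.57 in the nucleus. After arsenite they took 27.1% ± 1.56 and 14.5% ± 1.92. Introns took 47.5% ± 5.14 (cytoplasm, mock), 82.8% ± 1.18 (nucleus, mock), 64.6% ± 1.52 (cytoplasm, arsenite) and 76.9% ± 1.97 (nucleus, arsenite). Over all peaks introns took 30.5%, 53.9%, 43.7% and 47.3% in the same order, below the members in every group. No library of one group overlapped another in the 3'UTR share. Over all peaks the 3'UTR shares were 42.3%, 11.7%, 24.5% and 19.2% in the order cytoplasm and nucleus in mock, then cytoplasm and nucleus under arsenite, so members and whole table moved in the same directions. Under arsenite the members' 3'UTR shares lay further apart between the fractions than those of all peaks. In the nuclear arsenite libraries the members had 12.6% to 16.4%, against 18.2% to 20.7% over all peaks. This difference was not tested. The members' 5'UTR share was 3.18% ± 0.502 in the mock cytoplasm, against 0.832% over all peaks, and 0.845% to 0.905% in the other 3 groups. The PSMB4 peak gave 103 of the tags behind the mock cytoplasmic value.

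**Figure D1:**
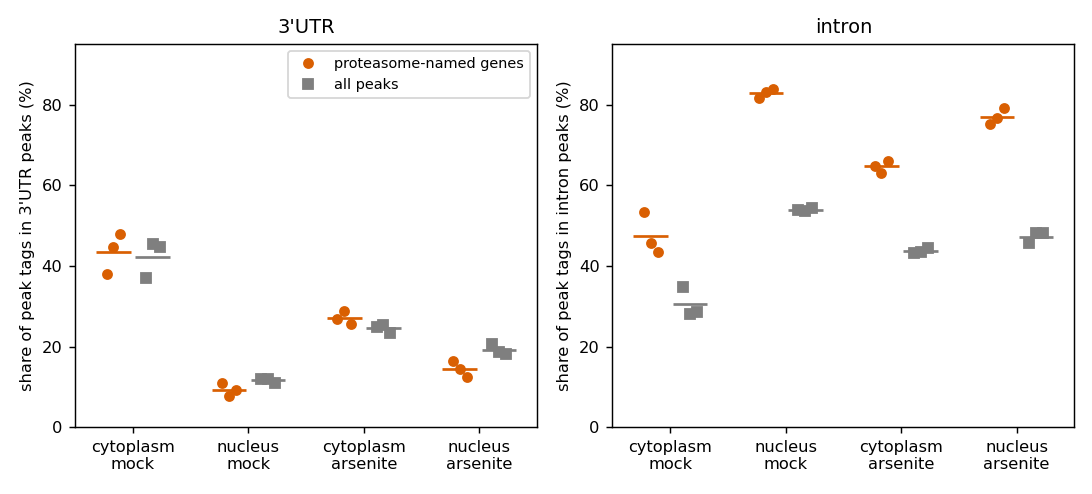
Share of tags in 3'UTR and intron peaks, in percent, for the proteasome-named genes and for all peaks, with a point for each of the 3 libraries of a fraction group. The members' 3'UTR share lies at 38.0% to 47.8% in the mock cytoplasm and at 7.83% to 11.0% in the mock nucleus.

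Peaks of 1 gene and 1 annotation class were summed, and each sum was tested with limma (log2 differences, Benjamini-Hochberg adjustment over all sums of the table, called under 0.05). In mock cells, 24 of 87 tested member sums differed between the fractions, against 29.0% of all tested sums. Of these, 16 were lower in the nucleus (16.2% of all sums were) and 8 higher (12.8%). Among 3'UTR sums 14 of 28 were lower in the nucleus and 0 higher, against 49.4% lower among all 3'UTR sums. Among intron sums 8 of 33 were higher and 0 lower, against 25.1% higher. The median difference was -0.98 for the member 3'UTR sums and -0.98 for all of them, and 0.57 for the member introns against 0.48. The members' shares are near those of their class, so the direction is that of 3'UTRs and introns at large. The median over all tested sums was 0.11, and differences stand relative to that. The split of calls turned on the scaling: 12 higher and 14 lower when scaled to the tags in peaks or centred on the median, and 2 higher and 17 lower in edgeR with TMM. Leaving out 1 library gave 14 calls (nuclear replicate 1, cytoplasmic replicate 2 or 3), 16 (nuclear replicate 2 or 3) or 19 (cytoplasmic replicate 1). In these fits 14.4% to 19.6% of the member sums were called, against 16.0% to 21.7% of all sums.

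The widest difference was in PSMD11, the lid subunit that helps to hold cap and core together. Its 3'UTR sum was 193, 214 and 269 CPM in the 3 mock cytoplasmic libraries and 35.0, 18.2 and 25.1 CPM in the nuclear ones. The nuclear libraries all lay far below the cytoplasmic ones (log2 difference -3.03, SE 0.22, limma adjusted p = 3.3e-07). The 3'UTR of PSMD5, a chaperone of cap assembly, had 25.5, 30.6 and 35.9 CPM in the cytoplasm against 4.37, 2.73 and 0.966 CPM (-2.78, SE 0.32). The single 3'UTR peak of PSMB3, a structural beta subunit, at chr17:38764198-38764218, had 35.1, 33.6 and 47.5 CPM against 7.29, 6.36 and 4.83 CPM (-2.28, SE 0.25); the table also annotates it as a coding retained intron. In these genes no cytoplasmic library came near a nuclear one.

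The beta subunit PSMB2 had 40.4, 39.7 and 53.8 CPM in the cytoplasm and 11.7, 1.82 and 14.5 CPM in the nucleus over its 3'UTR (-2.24, SE 0.41). For PSMA4 of the alpha ring the values were 7.45, 9.17 and 16.9 CPM against 0, 0.909 and 0.966 CPM (-2.16, SE 0.38), the latter from 2 tags. PSMB5, the chymotrypsin-like subunit that proteasome inhibitor drugs target, had 14.9, 27.5 and 26.4 CPM against 4.37, 4.55 and 2.90 CPM (-1.99, SE 0.31). All 3 were separated without overlap. The lid subunit PSMD12 had 71.3, 106 and 112 CPM against 24.8, 24.5 and 22.2 CPM (-1.89, SE 0.20). PSMD3, also of the lid, had 4.25, 5.09 and 5.27 CPM in the cytoplasm and no tag in the nucleus, which makes it at least 1.46-fold higher in the cytoplasm with 3 tags per library as the floor. The 3'UTR sums of PSMF1 (-1.46), PSMA2 (-1.38), PSMB1 (-1.38), PSMC4 (-1.20), PSMA1 (-1.14) and PSMG2 (-0.87) and the sum of PSMA6 outside named classes (-0.87) were lower in the nucleus too, on 1 to 6 nuclear tags each. The PSMG2 and PSMA6 calls (limma adjusted p = 0.047 each) were lost in 13 of 15 alternatives, all 6 fits without a library and edgeR among them. The PSMA2 call was lost in 6, those of PSMF1 and PSMC4 in 5 each and that of PSMA1 in 4, mostly in fits without a library.

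The 5'UTR peak of PSMB4, printed above, was lower in the nucleus too. It had 30.8, 41.8 and 34.8 CPM in the mock cytoplasm and 4.37, 10.0 and 6.76 CPM in the nucleus (-2.06, SE 0.28, limma adjusted p = 7.6e-05). The groups did not overlap. Among all 5'UTR sums 5.96% were lower in the nucleus.

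Introns went the other way in 8 genes. PSMD3 introns had 0, 1.02 and 2.11 CPM in the cytoplasm and 7.29, 10.9 and 5.79 CPM in the nucleus (1.65, SE 0.39), while its 3'UTR was lower in the nucleus. PSMA5, an alpha subunit, had 8.51, 5.09 and 2.11 CPM against 11.7, 23.6 and 15.4 CPM (1.40, SE 0.37). Of the genes with the most intron peaks, PSME4 had 107, 96.8 and 108 CPM against 162, 158 and 200 CPM (0.72, SE 0.15). All 3 were higher in every nuclear library than in any cytoplasmic one. The ubiquitin receptor PSMD4 (1.18), PSMA1 (0.93), PSMB7 (0.71), PSMD1 (0.60) and PSMD14 (0.47) complete the list. Of these, the PSMD4 call was lost in 7 of 15 alternatives and the PSMD14 call in 6. With edgeR and TMM scaling 6 of the 8 calls were lost, and those of PSMA5 and PSMD3 were kept. PSMD3 and PSMA1 were each called in opposite directions for intron and 3'UTR, and the PSMA1 intron call was among the 6 lost with TMM.

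**Figure D2:**
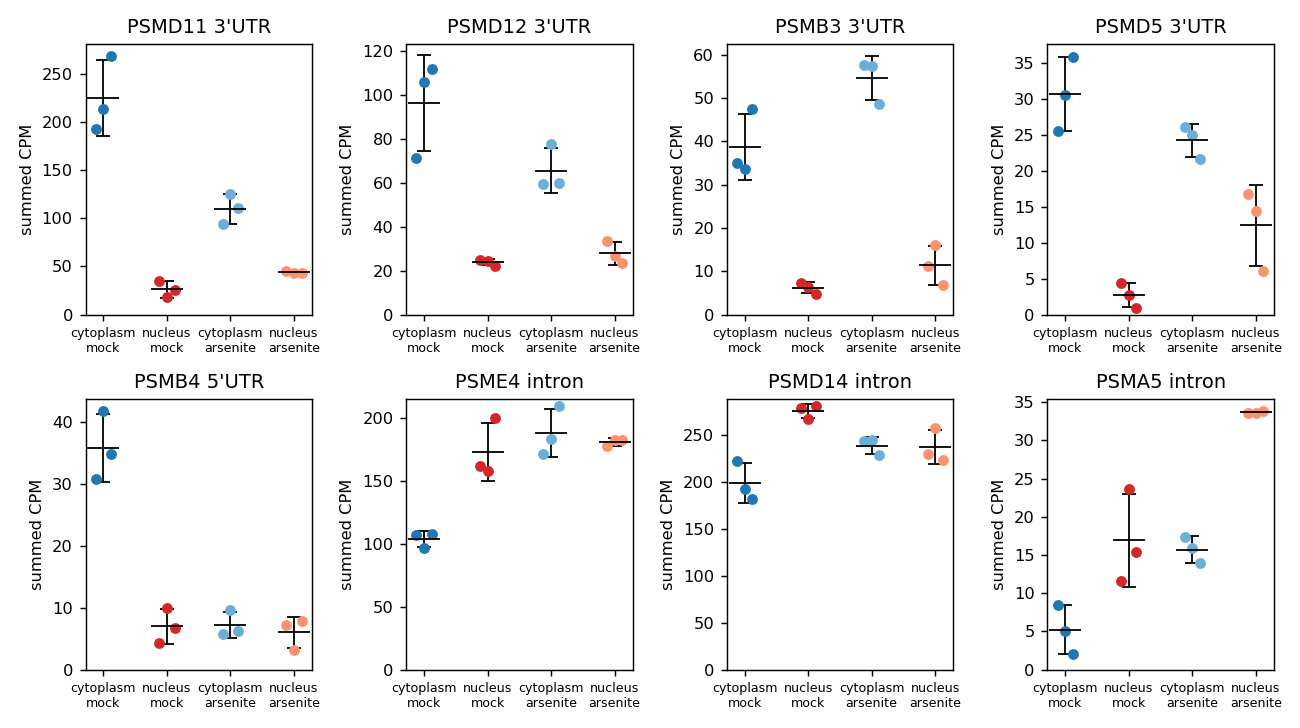
Summed CPM of 8 gene-by-class sums in the 4 fraction groups, each panel from 0 on its own scale, with a point for each library and mean ± SD (n = 3). The mock cytoplasmic libraries stand highest for PSMD11, PSMD12 and PSMD5 3'UTRs and the PSMB4 5'UTR, and lowest for PSME4 and PSMA5 introns.

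**Figure D3:**
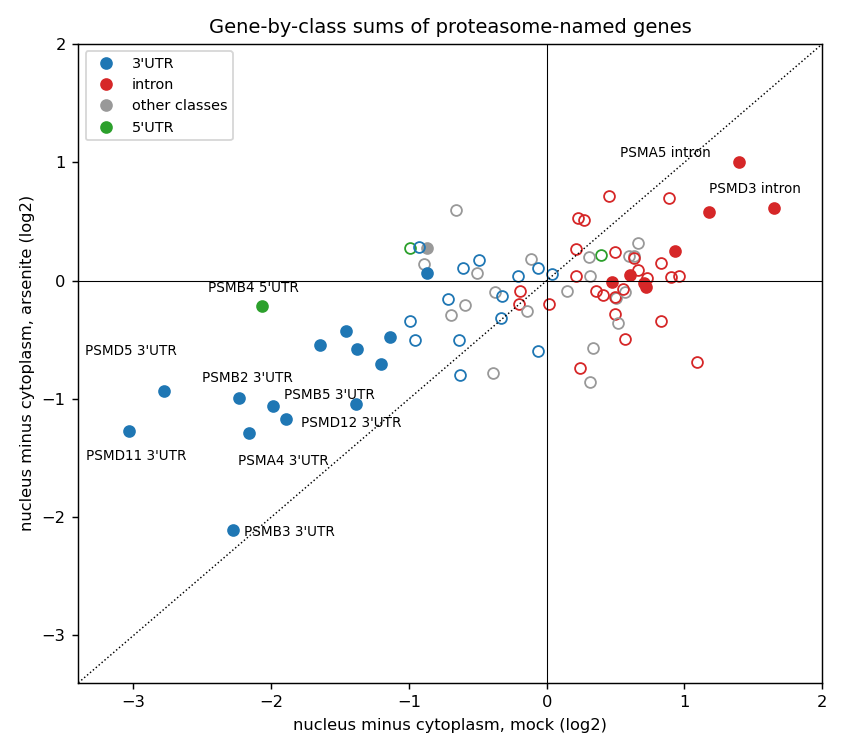
Nuclear minus cytoplasmic log2 difference of each member sum in mock cells (horizontal) and under arsenite (vertical), coloured by annotation class, with filled points for sums called in mock cells and a dotted line of equality. The called 3'UTR sums lie to the left and above the line, with the PSMB3 3'UTR (-2.28 and -2.11) nearest to it.

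Under arsenite 8 of 101 tested member sums differed between the fractions, against 4.99% of all sums, with 7 lower in the nucleus (3.38% of all sums) and 1 higher (1.62%). The 7 were all 3'UTRs, of 29 tested (9.89% of all 3'UTR sums were lower), with a median of -0.50 against -0.17 for all 3'UTR sums. PSMB3 kept a wide gap, with 57.8, 57.4 and 48.7 CPM in the cytoplasm and 11.2, 16.0 and 6.93 CPM in the nucleus (-2.11, SE 0.22, limma adjusted p = 4.8e-07). PSMA4 (-1.28), PSMD11 (-1.27), PSMD12 (-1.17), PSMB5 (-1.06), PSMB2 (-1.0) and PSMD5 (-0.93) followed. The higher sum was the PSMA5 intron, at 33.6, 33.6 and 33.8 CPM in the nucleus against 17.3, 15.9 and 13.9 CPM (1.00, SE 0.19). Leaving out 1 library gave 6 calls (nuclear replicate 1), 5 (nuclear replicate 2, cytoplasmic replicate 1), 4 (cytoplasmic replicate 3) or 2 (nuclear replicate 3, cytoplasmic replicate 2). In these fits 1.9% to 5.71% of the member sums were called, against 0.611% to 3.17% of all sums.

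In the cytoplasm arsenite changed 10 of 95 tested member sums, against 13.3% of all sums, with 4 lower (6.62% of all) and 6 higher (6.7%). The PSMB4 5'UTR moved furthest, from 30.8, 41.8 and 34.8 CPM in mock to 5.78, 9.66 and 6.26 CPM (-2.01, SE 0.24, limma adjusted p = 4.6e-05), and among all 5'UTR sums 4.23% fell. The PSMD11 3'UTR fell from 193, 214 and 269 to 93.9, 125 and 111 CPM (-1.01, SE 0.17). The PSMB2 3'UTR fell from 40.4, 39.7 and 53.8 to 15.9, 30.1 and 13.9 CPM (-1.13, SE 0.25). Treated and mock libraries did not overlap in these 3. The 3'UTR of PSMG4, an assembly chaperone, fell by 1.19 from 16 to 5 tags. In all, 3 of 29 member 3'UTR sums fell, against 18.6% of all 3'UTR sums, and their median was -0.25 against -0.30.

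The 6 sums that rose in the cytoplasm lay in introns and in nearby classes. PSME4 introns rose from 107, 96.8 and 108 to 172, 184 and 209 CPM (0.84, SE 0.15), and PSMD12 introns from 16.0, 16.3 and 22.1 to 28.2, 37.0 and 51.5 CPM (0.99, SE 0.24). PSMA5 introns rose by 1.35 and PSMD1 introns by 0.60. The transposable-element sum of PSMB7 rose by 1.40 and the PSMD14 sum outside named classes by 1.11. Intron sums rose for 4 of 34 members, against 13.5% of all intron sums. Leaving out 1 library gave 2 to 11 calls: 2 without arsenite replicate 2, 3 without arsenite replicate 3 or mock replicate 2, 4 without arsenite replicate 1, 6 without mock replicate 3 and 11 without mock replicate 1. In these fits 2.06% to 11.1% of the member sums were called, against 1.95% to 11.8% of all sums.

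In the nucleus 5 of 94 tested member sums changed with arsenite (6.13% of all sums), 4 higher (4.48%) and 1 lower (1.65%). The PSMD5 3'UTR rose from 4.37, 2.73 and 0.966 to 16.8, 14.4 and 6.06 CPM (1.54, SE 0.38, limma adjusted p = 0.027). The PSMD11 3'UTR rose from 35.0, 18.2 and 25.1 to 45.6, 43.2 and 43.3 CPM (0.75, SE 0.21, limma adjusted p = 0.045). PSMA5 introns rose by 0.95 from 11.7, 23.6 and 15.4 CPM. PSMA7 introns had no tag in mock and 2.40, 6.40 and 3.47 CPM after arsenite, at least 1.23-fold higher with 3 tags per library as the floor. PSMB2 introns fell by 0.87, from 20.4, 25.5 and 28.0 to 11.2, 12.8 and 13.0 CPM. No nuclear call survived every refit with 1 library left out: the count was 0 without any 1 of the 3 arsenite libraries or mock replicate 3, 1 without mock replicate 2 and 2 without mock replicate 1. In these fits 0.0% to 1.92% of the member sums were called, against 0.223% to 3.74% of all sums.

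**Figure D4:**
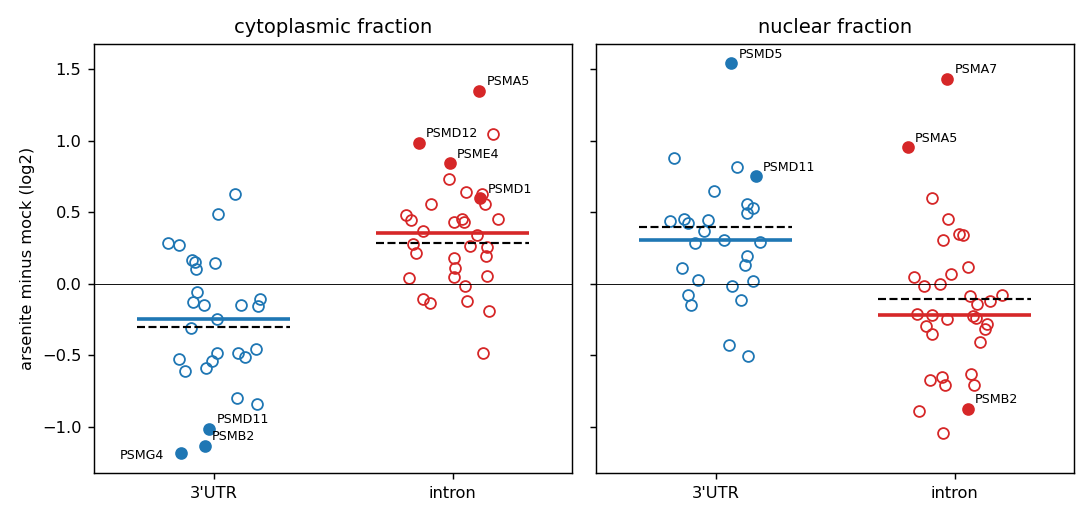
Log2 difference between arsenite and mock of each tested member sum of 3'UTR or intron peaks, in the cytoplasmic and nuclear fractions; filled points were called, solid bars are member medians and dashed bars medians of all sums of the class. In the cytoplasm the member 3'UTR median (-0.25) and the intron median (0.35) lie close to those of all sums (-0.30 and 0.29).

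Whether arsenite changed the nuclear minus cytoplasmic difference was tested as an interaction over the 12 libraries. It was called for 8 of 108 tested member sums (11.0% of all sums), 4 upward (7.05%), with the nuclear level higher relative to the cytoplasmic one under arsenite, and 4 downward (3.99%). Compartment markers moved as well: from mock to arsenite the nuclear level went from 250 to 490 CPM for ACTB, from 28.1 to 125 for NORAD and from 494 to 201 for GAS5, and cytoplasmic ACTB from 2385 to 1032 CPM. Their part in the result was not tested. Upward were PSMD5 3'UTR (1.85, SE 0.41), PSMB4 5'UTR (1.85, SE 0.42), PSMD11 3'UTR (1.76, SE 0.25, limma adjusted p = 1.1e-07) and PSMB2 3'UTR (1.24, SE 0.43). Downward were introns of PSMB3 (-1.78, SE 0.55), PSMD12 (-1.07, SE 0.32), PSME4 (-0.77, SE 0.19) and PSMD14 (-0.48, SE 0.16). The PSMB2 call (adjusted p = 0.048 by limma) was lost in 15 of 21 alternatives and the PSMD14 call (0.041) in 13, edgeR and 10 of the 12 fits without a library among them in both. The PSMB3 call was lost in 7 and the PSMD12 call in 4. The PSMB3 intron value rests on 2 and 12 tags in mock cytoplasm and nucleus and on 12 and 3 under arsenite. Thus 3 of 29 member 3'UTR sums were called, against 24.2% of all 3'UTR sums, although their median of 0.65 was like that of all (0.63). With values scaled to the tags in peaks or centred on the median, 4 were upward and 7 downward. Leaving out 1 library gave 4 calls (cytoplasmic mock replicate 2, cytoplasmic arsenite replicate 3 or nuclear arsenite replicate 3), 5 (cytoplasmic arsenite replicate 2 or nuclear arsenite replicate 1) or 6 to 11 (the other libraries). In these fits 3.64% to 10.0% of the member sums were called, against 7.54% to 11.8% of all sums.

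The 9 peaks of the PSMD11 3'UTR, spread over 1538 nt of chromosome 17, did not change alike. The strongest, at chr17:32481520-32481540, had 117, 116 and 179 CPM in the mock cytoplasm and 25.3, 33.5 and 29.9 CPM after arsenite (-2.11, SE 0.23, limma adjusted p = 0.0046 over all peaks). The peak upstream of it, at chr17:32481232-32481252, which the deposited table annotates both as 3'UTR and as intron, had 26.6, 27.5 and 21.1 CPM in the mock cytoplasm and 34.7, 49.5 and 48.0 CPM after arsenite (0.75, adjusted p = 0.094, not called). In the nucleus the first had 20.4, 10.9 and 13.5 CPM in mock and 14.4, 12 and 10.4 CPM under arsenite (-0.22, adjusted p = 0.82 by limma). The upstream peak rose in the nucleus from 2.91, 2.73 and 3.86 to 14.4, 15.2 and 14.7 CPM (1.65, SE 0.27, limma adjusted p = 0.034). In both fractions the balance thus moved to the upstream peak.

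Of the tags in both peaks, the upstream one took 16.1% ± 4.81 (SD, n = 3) in the mock cytoplasm and 59.7% ± 1.89 after arsenite, and 18.2% ± 5.09 and 54.8% ± 4.40 in the nucleus. No arsenite library overlapped a mock library. The mean difference within fractions was 40.1 percentage points. The pair was chosen after its values were seen, so this is a description with no test. The input libraries held far fewer tags: pooled over libraries, the upstream peak held 23 tags and the other 71 in G3BP arsenite inputs (24.5%), against 3 and 5 in G3BP mock inputs. In NLS inputs they held 10 and 17 under arsenite and 5 and 20 in mock, and in NES inputs 1 and 4 under arsenite and 1 and 10 in mock. In G3BP-enriched libraries they held 6 and 21 under arsenite and 2 and 12 in mock, in NLS-enriched libraries 2 and 0 and then 0 and 4, and in NES-enriched libraries 0 and 0 and then 1 and 1. Input and fraction libraries differ in cell line, labelling and library set, which cannot be told apart here.

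**Figure D5:**
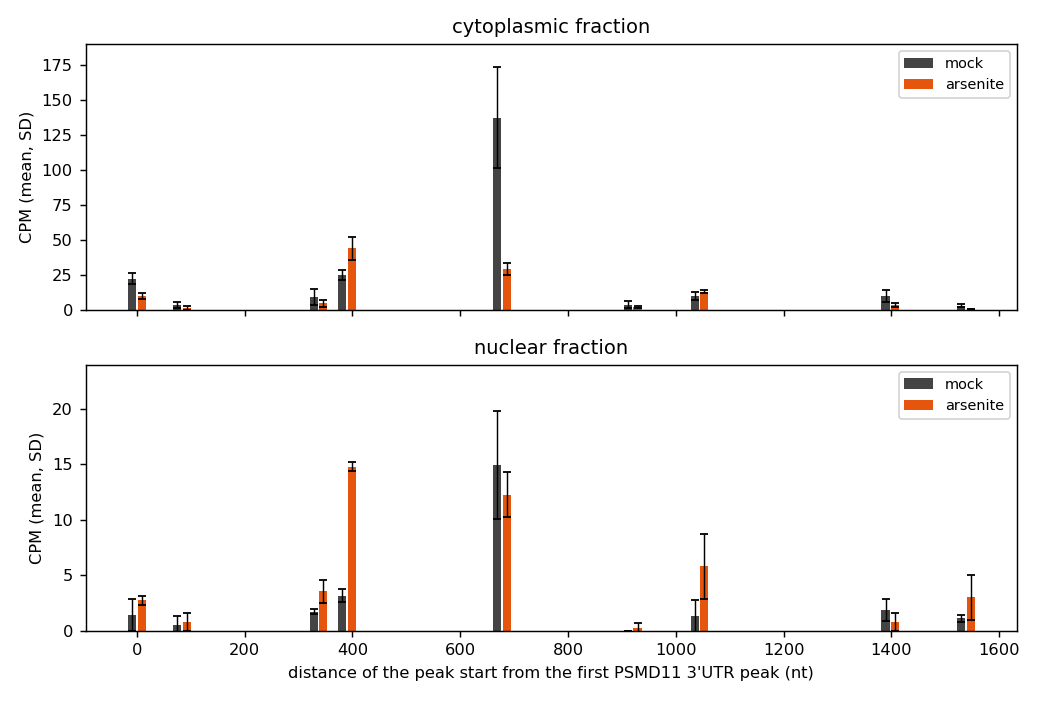
Mean level of the 9 peaks of the PSMD11 3'UTR in CPM (bars from 0, error bars SD, n = 3) against distance from the first peak in nt, for mock and arsenite, with the cytoplasmic and nuclear panels on different scales. The peak at 678 nt stands at 137 CPM in the mock cytoplasm and 29.6 CPM after arsenite, whereas the peak at 390 nt goes from 25.1 to 44.0 CPM.

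Peaks were also tested singly, and 542 of the 1006 held 1 to 10 fraction tags and 57 held over 50. In mock cells 24 of 556 tested peaks differed between the fractions, 18 lower in the nucleus and 6 higher, against 2.82% of all tested peaks (2.29% lower, 0.530% higher). They fell in 15 genes, and 17 of the 18 lower ones were 3'UTR peaks, of PSMD11, PSMB2, PSMB3, PSMD12, PSMD5, PSMB5, PSMD3, PSMA4 and PSMB1; the other was PSMB4. The 6 higher ones were in introns of PSMD1 (1.76), PSMD3 (1.75), PSMA5 (1.68), PSMD14 (1.54), PSMA1 (1.53) and PSME4 (1.45). Leaving out 1 library moved the count to 47 of 712 without nuclear replicate 1, 36 of them higher in the nucleus. That was 6.6% of the member peaks tested, against 7.46% of all peaks in that fit. The count was 4 without nuclear replicate 3, 1 without nuclear replicate 2 or cytoplasmic replicate 1, and 0 without cytoplasmic replicate 2 or 3. In those fits 0.0% to 0.385% of all peaks were called. With a library left out the filter asks for fewer non-zero libraries, and 677 to 722 member peaks were tested. The part of the filter in these counts was not tested.

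Under arsenite 4 of 766 tested peaks differed between the fractions (0.257% of all peaks): PSMB3 3'UTR (-2.11) and the upstream PSMD11 peak (-1.42) were lower in the nucleus, and introns of PSMA5 (2.27) and PSMD14 (1.96) higher. In the cytoplasm 6 of 668 changed with arsenite (0.760% of all; 0.520% fell and 0.240% rose): PSMD11 (-2.11), PSMB4 (-2.01) and a PSMB2 3'UTR peak (-1.61) fell, and introns of PSME4 (1.83) and PSMB7 (1.58) and a PSMB7 transposable element (1.81) rose. The PSMB7 intron peak had no tag in mock and was at least 1.47-fold higher. In the nucleus 1 of 669 changed (0.186% of all), and 1 of 956 had a called interaction (0.352% of all), both in PSMD11. These counts changed when a library was left out, in fits that also tested more peaks under the looser filter. Without nuclear replicate 2 the first was 1, and without any other library 0, against 0.0% to 0.0196% of all peaks. The cytoplasmic count was 35, 45 and 47 without arsenite replicates 1, 2 and 3 (4.46%, 5.99% and 6.07% of the member peaks tested, against 6.17%, 7.16% and 5.97% of all peaks). It was 1, 0 and 0 without mock replicates 1, 2 and 3, against 0.0832%, 0.0% and 0.0161% of all peaks. The nuclear count was 19 without arsenite replicate 3 (2.42% of the member peaks, against 3.37% of all) and 0 without any other library (at most 0.0491% of all). The interaction of the PSMD11 peak was lost with values scaled to the tags in peaks (limma adjusted p = 0.076) and without cytoplasmic mock replicate 3, cytoplasmic arsenite replicate 1 or 2, or nuclear arsenite replicate 3.

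In the inputs, with line and library set as terms, 0 of 45 tested member sums changed with arsenite by limma (0.0% of all sums); 7 had an unadjusted p under 0.05, and edgeR called 1. The PSMB4 5'UTR had 5 tags in 4 of 8 mock inputs and 67 tags in 7 of 9 arsenite inputs (1.21, 95% interval 0.25 to 2.18, limma adjusted p = 0.46), a sign opposite to that in the cytoplasmic fraction, which fell. The PSMD5 3'UTR had 22 and 80 tags (1.28, limma adjusted p = 0.46). PSMD11 3'UTR tags numbered 74 in 6 of 8 mock inputs and 203 in 7 of 9 arsenite inputs (0.20, limma adjusted p = 0.92). The median over all tested sums was 0.25. Depth differed widely between these libraries, and by peaks 0 of 79 were called (0.0% of all; 12 with unadjusted p under 0.05; edgeR 2).

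The enriched libraries held too few tags to compare proteasome peaks. The tests of NLS against NES reached 1 member peak in mock and 2 under arsenite, G3BP against NES reached 1, and arsenite against mock in G3BP reached 2. None was called by limma or edgeR, 1 of the G3BP peaks having an unadjusted p under 0.05; all peaks were called at 0.0%, 0.0%, 0.491% and 0.0%. The G3BP-enriched libraries held 18 PSMD11 3'UTR tags in 6 mock libraries and 42 in 7 arsenite libraries, and 15 and 29 for PSMD12. The PSMD12 3'UTR peak tested there differed by 1.83 (95% interval 0.15 to 3.51, limma adjusted p = 0.25). On data simulated for that comparison, limma recovered 3 and edgeR 36 of 200 peaks changed 4-fold.

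Among 30 other genes of the pathway, such as ubiquitin genes, shuttle factors and the transcription factor NFE2L1 that drives proteasome genes, 7 of 66 tested sums were higher in the mock nucleus (12.8% of all sums) and 10 lower (16.2%). Under arsenite 3 of 73 were higher in the nucleus (1.62% of all) and 2 lower (3.38%). Arsenite raised 8 of 67 sums in the cytoplasm (6.7% of all) and lowered 4 (6.62%), and in the nucleus it raised 5 of 67 (4.48%) and lowered 0 (1.65%). The 5 raised in the nucleus were 3'UTRs of the shuttle factors UBQLN1 (1.82) and RAD23B (1.57), the protease DDI2 that activates NFE2L1 (1.60), ZFAND5 (1.41), which binds the proteasome, and the deubiquitinase USP14 (1.26). The interaction was called upward for 9 of 81 (7.05% of all) and downward for 4 (3.99%).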

How the data were processed

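The authors deposited one signal value for every peak in each library. Read from the values, it is the peak's CLIP tags over a library total, and all peaks are 20 nt long. Whole tags were recovered for 100% of values in every column (tolerance 0.02 of a tag), and the counts used by edgeR are those recovered tags. Per the submitters' processing notes, Bowtie2, SAMtools, bedtools and HOMER were used and a build GRCh38.p14 is named; the peak caller and its settings are not given in the sources used here. Divisors ranged from 4662 to 2622677 tags, of which 3.85% to 38.7% lay in listed peaks. The table had 395471 lines, of which 8257 repeats were dropped, and 84358 peaks carry no gene name.

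The members and gene lists were chosen with earlier results of these data known. Peaks, and sums of the peaks of 1 gene and annotation class, were tested with limma 3.58.1 (R 4.3.3; lmFit, then eBayes with a trend) on the log2 scale after adding 2.283806e-06 to each value, which is 2.28 CPM, so fold changes of low features are understated. A feature was kept if the number of its non-zero libraries reached the size of the smaller group. P-values are two-sided and Benjamini-Hochberg adjusted over all features of the table; edgeR 4.0.16 on the whole tags was the alternative. Members named are the 10 with the highest summed level, the highest and lowest of each role, and in each comparison up to 10 called features in each direction. Folds against groups without a tag use 3 tags per library as the floor, which covers counting error only. All 44 names matched RefSeq. The sequence comes from RefSeq promoter entries; no other peak sequence was read.

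Data were simulated with 200 features changed 4-fold. For sums, limma recovered 200 of them in the mock nuclear against cytoplasmic comparison, 194 in the interaction and 47 in the inputs. For peaks it recovered 139 in the mock comparison, 39 in the interaction and 3 in the inputs. In these runs the changed features were drawn from those with the highest means, with a common dispersion. Recovery among weaker features, such as peaks with few tags, was not measured. Same-numbered replicates did not deviate together in the fractions (correlation -0.0476 to 0.0306 over sums), so the numbers were not taken to pair libraries. This cannot exclude that same-numbered libraries share a culture, which the labels do not state. Of 32 replicate pairs tested for differences beyond counting noise, 5 showed none; they were counted once in an alternative. Python 3.11.15 with numpy 2.4.6, pandas 2.3.3, scipy 1.17.1 and matplotlib 3.10.9 was used. The alternatives were other pseudocounts, filters, tools, scalings, a replicate block and leaving out each library.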

Additional observations from a re-analysis of the deposited data

Results flagged for a closer look

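Of 15 tests for a value far from the rest, each of 1 quantity in 1 group of libraries, 4 found one, in 3 groups. The tests assume normal values, whereas these are few tags in libraries of unlike depth, so the rate expected by chance is not known. A lone library with tags among libraries without any is always flagged. The members' summed level in 1 G3BP-enriched mock library was 643.5 CPM, against 0 to 212 CPM in the other 5; it rests on 3 tags in a library of 4662. In 1 G3BP mock input it was 0 CPM, against 456 to 549 CPM in the other 3. That library totalled 22476 tags, 1353 of them in peaks. The PSMB4 5'UTR stood at 7.63 CPM in 1 G3BP-enriched arsenite library and at 0 in the other 6, and at 9.49 CPM in 1 G3BP mock input against 0 to 1.31 CPM in the other 3, the last from 2 tags.

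The effect of arsenite differed between the fractions by the interaction test in limma for 9 features, each given as the log2 change of the nuclear minus cytoplasmic difference. It was 1.90 for the PSMD11 3'UTR peak at chr17:32481520-32481540, 1.76 for the PSMD11 3'UTR sum, 1.85 for the PSMD5 3'UTR, 1.85 for the PSMB4 5'UTR and 1.24 for the PSMB2 3'UTR. It was -1.78 for PSMB3 introns, -1.07 for PSMD12 introns, -0.77 for PSME4 introns and -0.48 for PSMD14 introns. Of 21 alternatives, the PSMB2 call was lost in 15, that of PSMD14 in 13, of PSMB3 in 7, of the PSMD11 peak in 5 and of PSMD12 in 4. The other 4 were lost in 0.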

How the results depend on the processing

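No call among the members changed direction under any alternative run. Of 55 called gene-by-class sums, 16 kept their call under every alternative and 42 under every one other than leaving out a library; of 36 called peaks, 0 and 14 did. The 16 were, in mock cells, the 3'UTRs of PSMA4, PSMB1, PSMB3, PSMB5, PSMD11, PSMD12, PSMD3 and PSMD5 and the PSMB4 5'UTR. Under arsenite they were PSMB3 and PSMD11 3'UTRs, in the cytoplasm the PSMB4 5'UTR, and in the interaction the PSMB4 5'UTR, PSMD11 and PSMD5 3'UTRs and PSME4 introns. The counts of called peaks moved most, and the cause was not tested. In mock cells 24 became 12 with a pseudocount 4 times smaller, 83 when peaks had to be non-zero in every library of a group, 8 in edgeR with TMM and 12 centred on the median. A peak could meet the non-zero rule through the group where it was high. That rule therefore favours differences, and its higher counts, here and below, lend no support to the calls. For nucleus against cytoplasm under arsenite 4 became 9 without a filter, 57 non-zero in every library and 11 in edgeR. In the cytoplasm 6 became 23 with the smaller pseudocount, 95 non-zero in every library and 10 in edgeR, in edgeR with TMM, and scaled to tags in peaks. With the replicate number as a block it became 10 as well. In the nucleus 1 became 0 with the smaller pseudocount and with TMM and 40 non-zero in every library. The interaction went from 1 to 3 with a pseudocount 4 times larger, 13 non-zero in every library, 2 scaled to tags in peaks and 2 centred. The PSMD11 peak was not among the 2 called with values scaled to tags in peaks. Input peaks went from 0 to 2 in edgeR. Of the sums, the nuclear change with arsenite went from 5 to 8 non-zero in every library, and the inputs from 0 to 1 in edgeR and 1 with TMM. Leaving out 1 library gave 0 to 47, 0 to 1, 0 to 47, 0 to 19 and 0 to 1 peaks in the 5 fraction comparisons, in the order given here, and 14 to 19, 2 to 6, 2 to 11, 0 to 2 and 4 to 11 sums. For inputs and enriched libraries it gave 0 throughout. The shares of all sums in the fraction fits are given with each comparison above. Blocking on the replicate number, which was not taken to pair these libraries, gave 22, 9, 10, 5 and 7 sums. With peaks non-zero in every library of a group, no member was left to test for input peaks, for NLS against NES under arsenite or in both G3BP comparisons.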
